A study of Mus musculus with 4 samples.

Results

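The 34 genes described here are interferon-stimulated genes, found by symbol among the 27998 genes of 4 single-cell count matrices of mouse kidney. All 34 symbols were present in each matrix. The cells came from BAC-CluGFP transgenic mice, in which green fluorescent protein (GFP) marks cells that express clusterin, and only GFP+ cells sorted by flow cytometry were sequenced. The 4 groups were 1 library each: an untreated library, and libraries made at day 2, day 7 and day 30 after 35 min of ischemia-reperfusion injury (IRI), in which blood flow to the kidney is stopped and then restored. A cell type label that all 4 libraries carry, the untreated one included, mentions IRI, and the untreated library was grouped by its title and treatment. The labels state no strain, age or sex, and they do not say how many animals a library holds. All 4 groups carried the transgene, so kidney cells without the GFP signal were outside the sort in every group, and the GFP transcript was not analysed here.

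With 1 library per group there is no replicate check and no test was possible between times. Each difference below compares these libraries, and the intervals cover counting error only, so they do not include differences between animals or library preparations. After filtering, 6545, 8310, 1920 and 6365 cells were kept in the untreated, day 2, day 7 and day 30 libraries, with median totals of 5153, 8779.5, 23368.5 and 9050 unique molecular identifiers (UMIs, each standing for 1 captured RNA molecule). The median mitochondrial share per cell was 14.5% in the untreated library and 2.82% to 3.68% in the 3 IRI libraries, and its part in the differences against the untreated library was examined through 2 alternatives, leaving mitochondrial genes out of the scaling and a limit of 20% mitochondrial UMIs per cell. Pairs of libraries shared 4 to 20 cell barcodes, 74 in all.

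Cells were assigned to kidney cell classes by a gate on marker genes, none of which was a member. The class was the marker list with the highest score, and 20488 of 23140 kept cells received one. Levels are given as counts per 1000000 UMIs of a class in a library (CPM), with exact Poisson intervals at the 95% level. Clu, the gene of clusterin, was at 234, 2468, 1373 and 660 CPM over all cells of the untreated, day 2, day 7 and day 30 libraries. A class was used where it held at least 50 cells. A gene was measured in a comparison where it reached 20 CPM in either group and 20 UMIs in both together, and it was called higher or lower where the ratio was at least 2-fold and its exact interval excluded 1. A member near 0 in one group was therefore measured only through the other, where it was high, so counts of called among measured members are descriptions. The difference on the log scale was log2 of the ratio of (CPM + 10), which understates the change of low genes.

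Interferons are secreted proteins made on infection or on sensing of misplaced nucleic acid. Type I interferons signal through the receptor chains IFNAR1 and IFNAR2 to a complex that contains STAT2 and IRF9 and binds the interferon-stimulated response element (ISRE). Interferon gamma signals through IFNGR1 and IFNGR2, and many of its target genes carry the gamma-activated site (GAS). The induced genes encode RNA-binding and RNA-degrading antiviral proteins, membrane proteins that block virus entry or release, and GTPases that act against intracellular pathogens, and many of them are also expressed at a low level without infection.

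The windows from 250 bases before to 50 bases after the gene start are shown for 6 members whose cell class pattern is described below: 2 members that were high in thin limb cells (Ifit3, Ifit3b), 2 that were high in endothelium (Isg15, Rsad2) and 2 that were higher late after injury (Gbp2, Irf1). Sequences are from RefSeq on build GRCm38.p6, 5′ to 3′ on the strand of the gene, with capitals marking the letters searched. These were, for the ISRE, GAAA and a second GAAA with any 2 bases between them (TTTC and TTTC on the other strand) and, for the GAS, TTCNNNGAA, shown in Irf1. Overlapping matches run together, as in Isg15.
Ifit3, chr19:34583279-34583578, plus strand: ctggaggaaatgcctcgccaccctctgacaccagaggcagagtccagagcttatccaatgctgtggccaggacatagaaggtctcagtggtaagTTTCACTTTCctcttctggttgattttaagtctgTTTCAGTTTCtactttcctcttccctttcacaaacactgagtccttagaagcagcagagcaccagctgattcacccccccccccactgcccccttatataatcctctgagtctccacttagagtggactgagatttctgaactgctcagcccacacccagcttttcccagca
Ifit3b, chr19:34607707-34608006, plus strand: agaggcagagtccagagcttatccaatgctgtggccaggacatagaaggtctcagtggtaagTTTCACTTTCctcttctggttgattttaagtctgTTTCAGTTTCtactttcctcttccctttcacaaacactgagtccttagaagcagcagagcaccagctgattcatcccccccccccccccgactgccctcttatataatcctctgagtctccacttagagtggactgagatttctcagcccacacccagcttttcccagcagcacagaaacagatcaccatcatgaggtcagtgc
Isg15, chr4:156200769-156201068, minus strand: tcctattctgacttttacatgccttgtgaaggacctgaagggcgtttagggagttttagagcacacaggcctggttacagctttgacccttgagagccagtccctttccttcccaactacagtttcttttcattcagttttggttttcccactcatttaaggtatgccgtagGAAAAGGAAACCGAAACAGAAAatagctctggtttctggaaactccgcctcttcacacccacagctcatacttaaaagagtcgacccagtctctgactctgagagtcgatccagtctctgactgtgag
Rsad2, chr12:26456403-26456702, minus strand: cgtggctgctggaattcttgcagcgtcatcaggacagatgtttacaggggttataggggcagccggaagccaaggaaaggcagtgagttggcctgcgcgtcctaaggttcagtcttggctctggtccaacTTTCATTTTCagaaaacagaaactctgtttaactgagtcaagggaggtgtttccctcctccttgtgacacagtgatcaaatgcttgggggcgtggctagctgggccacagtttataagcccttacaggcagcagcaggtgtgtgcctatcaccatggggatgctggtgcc
Gbp2, chr3:142620413-142620712, plus strand: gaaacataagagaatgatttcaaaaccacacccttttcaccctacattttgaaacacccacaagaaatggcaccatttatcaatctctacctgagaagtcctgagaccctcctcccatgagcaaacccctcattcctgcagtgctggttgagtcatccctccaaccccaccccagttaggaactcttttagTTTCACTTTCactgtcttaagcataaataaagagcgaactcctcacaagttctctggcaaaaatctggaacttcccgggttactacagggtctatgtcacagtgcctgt
Irf1, chr11:53769764-53770063, plus strand: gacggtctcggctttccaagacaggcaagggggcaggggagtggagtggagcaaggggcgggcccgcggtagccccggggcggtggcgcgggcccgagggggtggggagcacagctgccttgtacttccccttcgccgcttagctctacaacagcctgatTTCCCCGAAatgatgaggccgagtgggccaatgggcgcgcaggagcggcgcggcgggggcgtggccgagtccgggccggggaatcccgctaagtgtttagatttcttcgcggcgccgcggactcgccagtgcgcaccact

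Of the 34 members, 29 had a window in the RefSeq table, and Ifi27l2a, Usp18, Zbp1, Mx1 and Rtp4 had none. ISRE letters stood in the windows of 19 of the 29 (65.5%), against 3.99% of all 27025 genes in the table. GAS letters stood in 8 of the 29 (27.6%), against 9.55% of all genes. The Isg15 window held 3 overlapping ISRE matches, with first bases 78, 72 and 66 before the start, and the Rsad2 and Gbp2 windows held 1 each, at 120 and 59 bases before the start. Ifit3 and Ifit3b, neighbours on chromosome 19 that both encode RNA-binding proteins of the IFIT family, each held 2 matches, at 156 and 122 bases before the start of Ifit3 and at 188 and 154 before that of Ifit3b. Their windows contained an identical run of 169 bases, and 201 of 268 bases (75%) were the same when the windows were shifted by 32 bases. The Irf1 window shown held no ISRE match and 1 GAS match 90 bases before the start, and the Ifit2 window held no ISRE match. A letter match is a description of the sequence and not a measured site.

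Transcripts of some members are hard to tell apart at the 3′ end, where this assay reads. Of the 31-base words in the last 500 bases of the transcript, Oas1a shared 70% with other genes (Oas1g), Ifitm1 shared 26.6%, Ifit3 24% (with Ifit3b), Ifitm3 19.6%, Ifitm2 11.3% and Ifit3b 9.17%. Values of these members are uncertain where the counting could split them. Irf9, Ifi47 and Igtp overlap exons of Rnf31, Olfr56 and Irgm2 on the same strand. Exons of Irf1, Irf7, Oasl1 and Usp18 overlap Gm17334, Phrf1, Gm13822 and Gm44148 on the other strand, and no label or header states whether strand was used in the counting.

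**Figure D1:**
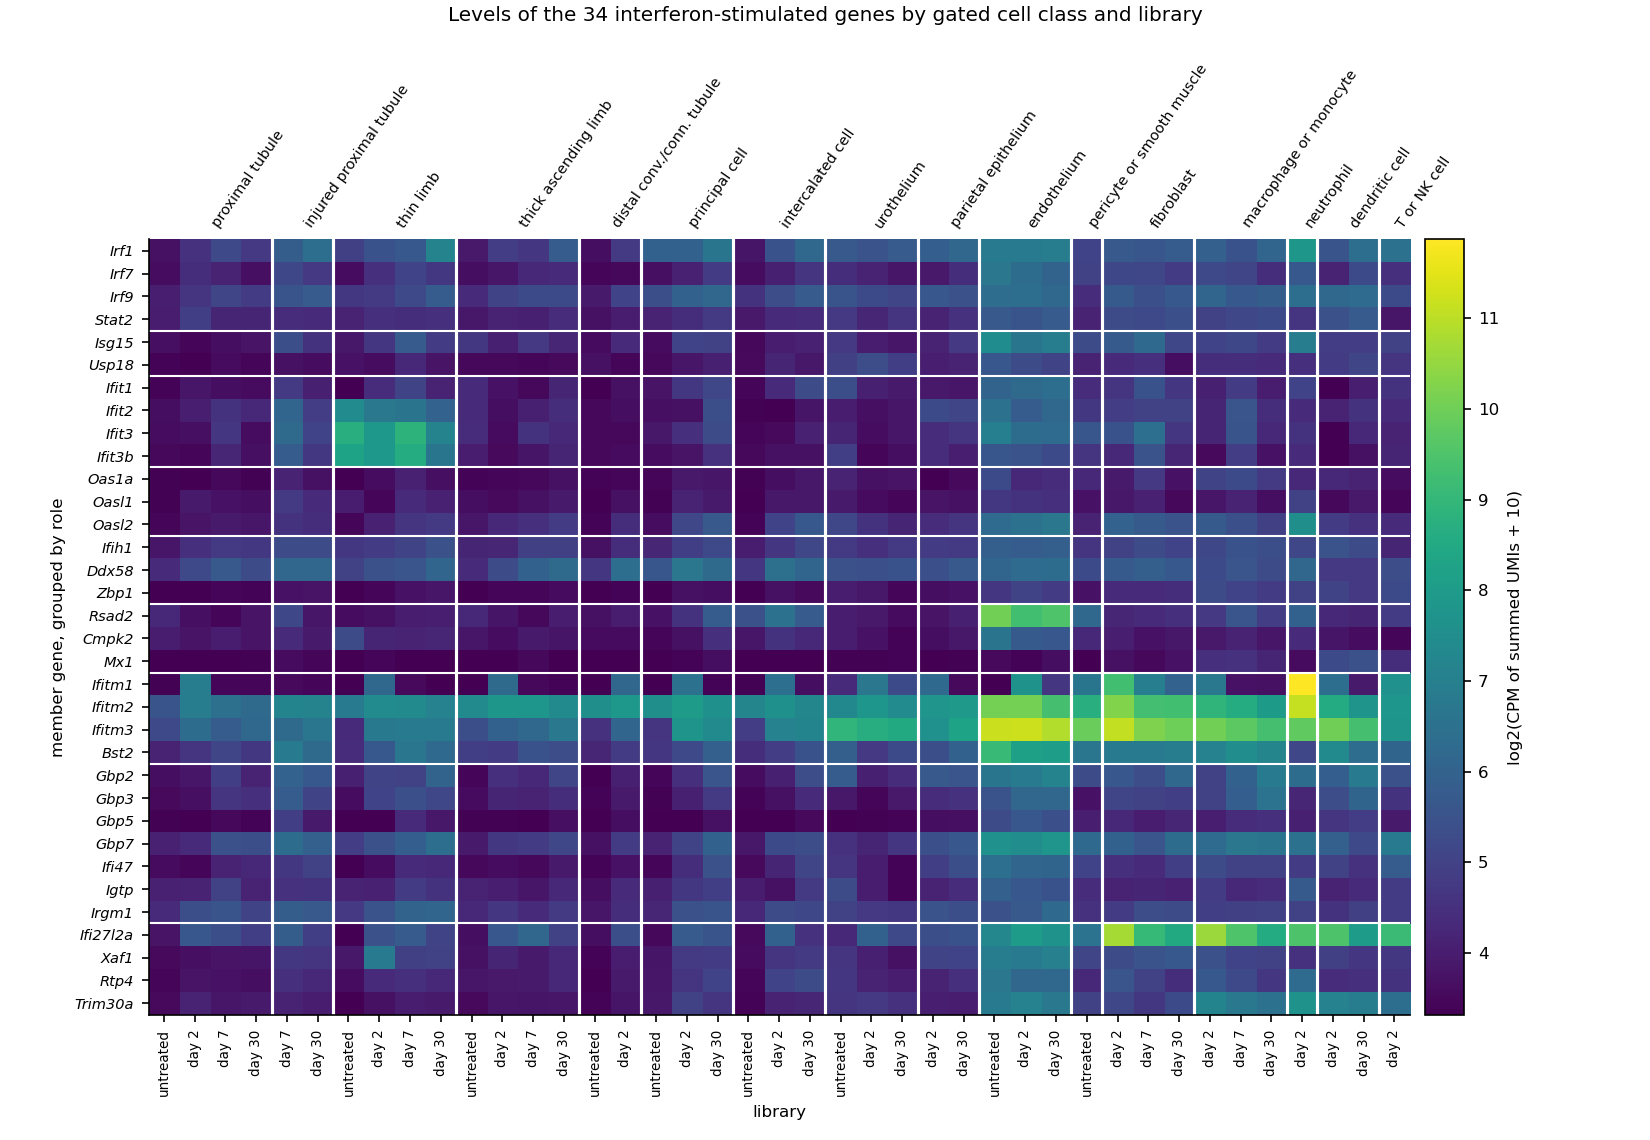
Level of the 34 members (rows, grouped by role) in every cell class and library with at least 50 cells (columns), coloured by log2(CPM + 10). The endothelium columns are bright over most rows in each library that holds that class, the thin limb columns stand out in the Ifit2, Ifit3 and Ifit3b rows, and the untreated proximal tubule column is dark in most rows.

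In the untreated library the endothelium carried the highest levels of most members. Of 9 classes with at least 50 cells, it was highest for 30 of the 34. The exceptions were Ifit2, Ifit3 and Ifit3b, highest in thin limb, and Ifitm1, highest in pericyte or smooth muscle cells. The summed level of the 34 members was 7107 CPM in untreated endothelium (390 cells), against 170 CPM in untreated proximal tubule (3051 cells) and 365 CPM in untreated thick ascending limb (641 cells). The classes also differed in median depth, at 3653 UMIs per cell in endothelium and 3886 in proximal tubule.

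Against untreated proximal tubule, 30 of 30 measured members were called higher in untreated endothelium and 0 lower, where 38.5% of all measured genes were called higher and 15% lower. Only Ifitm2 and Ifitm3 reached 20 CPM in untreated proximal tubule, so the other 28 were measured through the endothelium and most of this count was fixed by the minimum level. The median log2 difference over all 34 members was 2.74, beside 0.51 over all measured genes, and it was 5.29 without the added 10 CPM and with genes at 0 UMIs set to 3 counts. Against untreated thick ascending limb the count was also 30 of 30, 27 of them measured through the endothelium alone, where 28.3% of measured genes were called higher and 12.9% lower. By role, Ifitm3, a membrane protein that blocks virus entry, was at 2346 CPM in endothelium against 26.6 CPM in proximal tubule (ratio 88.1, interval 81.2 to 95.9). Rsad2, which encodes the antiviral enzyme viperin, was at 1047 CPM in endothelium against 9.6 CPM in proximal tubule (ratio 109, interval 95.2 to 125). Bst2, which encodes tetherin, a protein that holds budding virus at the cell surface, was at 529 CPM in endothelium against 7.57 CPM in proximal tubule (ratio 69.9). Isg15, a ubiquitin-like modifier that is attached to other proteins, was at 167 CPM in endothelium against 2.65 CPM in proximal tubule (ratio 63.1, interval 48.1 to 83.8). All 4 were far above the tubule level, and they were chosen after their values were seen, as were the members named below outside the comparisons of proximal tubule, thick ascending limb, principal cell and macrophage.

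These levels were spread over many endothelial cells. After each cell was thinned to 2000 UMIs, 66.2% of untreated endothelial cells held a Rsad2 UMI (interval 61.2% to 70.8%), against 1.57% of untreated proximal tubule cells (interval 1.16% to 2.08%). Without thinning the shares were 78.2% in endothelium and 3.21% in proximal tubule. The cell with the most Rsad2 UMIs in untreated endothelium held 2.32% of the class total.

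After IRI the endothelium differed little from the untreated class in these genes. Endothelium at day 2 (316 cells) had 1 of 32 measured members called higher and 2 lower, where 8.24% of measured genes were called higher and 8.92% lower. At day 30 (130 cells), 0 of 30 were called higher and 2 lower, where 9.75% of measured genes were called higher and 8.87% lower. The day 7 library held 2 endothelial cells and was not used for this class. The median log2 difference over the 34 members was -0.12 at day 2 and -0.15 at day 30, beside 0.02 and 0.07 over all measured genes. Both members called lower were the same at the 2 times. Cmpk2, a mitochondrial nucleotide kinase, was at 88.4, 43.7 and 39.9 CPM in the untreated, day 2 and day 30 endothelium, and Oas1a, which makes the activator of RNase L, was at 27.6, 9.61 and 11.4 CPM. The member called higher at day 2 was Ifitm1, at 199 CPM against 0 UMIs in untreated endothelium, a ratio of at least 120 against a floor of 3 counts. There it came with 0.129 UMIs per UMI of the neutrophil marker S100a8, against 0.101 in day 2 neutrophils. Without the cell that held the most antiviral UMIs in each class and library, 1 member in place of 2 was called lower at day 2. At a 1.5-fold limit, 3 and 2 members were called higher and 8 and 9 lower at days 2 and 30.

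Rsad2 in endothelium was at 1047, 616 and 714 CPM in the untreated, day 2 and day 30 libraries, and was not called in either comparison. Ifitm3 was at 2346, 2392 and 1880 CPM and Isg15 at 167, 90.9 and 112 CPM in the same order. The untreated library was the highest of the 3 for Rsad2 and Isg15, and the day 2 library for Ifitm3. Endothelium was the highest of 14 classes for 16 of the 34 members at day 2, where neutrophils were highest for 9, and the highest of 12 classes for 23 of the 34 at day 30. At day 30, 23 of 29 measured members were called higher in endothelium than in injured proximal tubule and 0 lower, where 14.4% of measured genes were called higher and 13.9% lower. Against the macrophage or monocyte class, 23 of 32 were called higher in endothelium at day 2 and 2 lower (Oas1a and Ifi27l2a), where 24.9% of measured genes were called higher and 14% lower, and 20 of 29 were called higher and 0 lower at day 30, where 23% and 11.5% were.

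The thin limb class, a small group of cells gated on 6 markers, had high levels of 3 members of the IFIT family, which bind foreign RNA. It held 55, 77, 114 and 174 cells in the untreated, day 2, day 7 and day 30 libraries, and 17, 16, 58 and 89 of these lay near the gate. No cluster of a clustering made without the members was named thin limb, so the class rests on the gate alone. Of its markers, Fst was at 1675 CPM in the untreated cells against 1.81 CPM in untreated thick ascending limb, and Slc14a2 was at 130 CPM against 0.363 CPM. After IRI some of the 6 markers were lower in the class. From untreated to day 30, Fst was at 1675, 230, 812 and 446 CPM and Slc14a2 at 130, 90.3, 15.8 and 45.1 CPM. Cryab was at 7823, 2772, 2930 and 2028 CPM. Ankrd1 and Epha7 were higher after IRI, at 207, 1228, 1523 and 742 CPM and at 39.7, 54, 43.2 and 135 CPM. The part of these shifts in the member differences below was not tested. Sptssb was under 20 CPM in the thin limb class of each IRI library, and Ankrd1 was also at 324 CPM in injured proximal tubule at day 30.

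Ifit3 was at 397, 227, 453 and 131 CPM in thin limb in the untreated, day 2, day 7 and day 30 libraries, and was the highest of all classes in each. Ifit3b was at 304, 227, 385 and 89.2 CPM and Ifit2 at 166, 96.5, 87.5 and 55.1 CPM in the same order. The day 30 level was the lowest of the 4 for each of the 3 genes. Under a stricter margin of the gate, Ifit3 was at 412, 241, 562 and 165 CPM.

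Against untreated thick ascending limb, 5 of 9 measured members were called higher in untreated thin limb and 1 (Ifitm3) lower, where 22.6% of measured genes were called higher and 6.4% lower. Ifit3b was at 304 CPM in thin limb against 5.8 CPM in thick ascending limb (ratio 52.4, interval 36.2 to 78.2), and Ifit3 at 397 against 11.4 CPM (ratio 34.8, interval 26.5 to 46.2). The interferon-induced genes next to them in role did not share this level: Rsad2 was at 2.27 CPM and Isg15 at 4.54 CPM in untreated thin limb, and Ifit1 had 0 UMIs among 55 cells. After thinning, 41.8% of untreated thin limb cells held an Ifit3 UMI (interval 28.7% to 55.9%), against 1.4% of untreated thick ascending limb cells (interval 0.644% to 2.65%). Unthinned, the shares were 67.3% at a median of 11443 UMIs per cell and 3.12% at 6070. The 9 endothelial markers summed to 26.1 CPM in untreated thin limb and none reached 20 CPM.

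**Figure D2:**
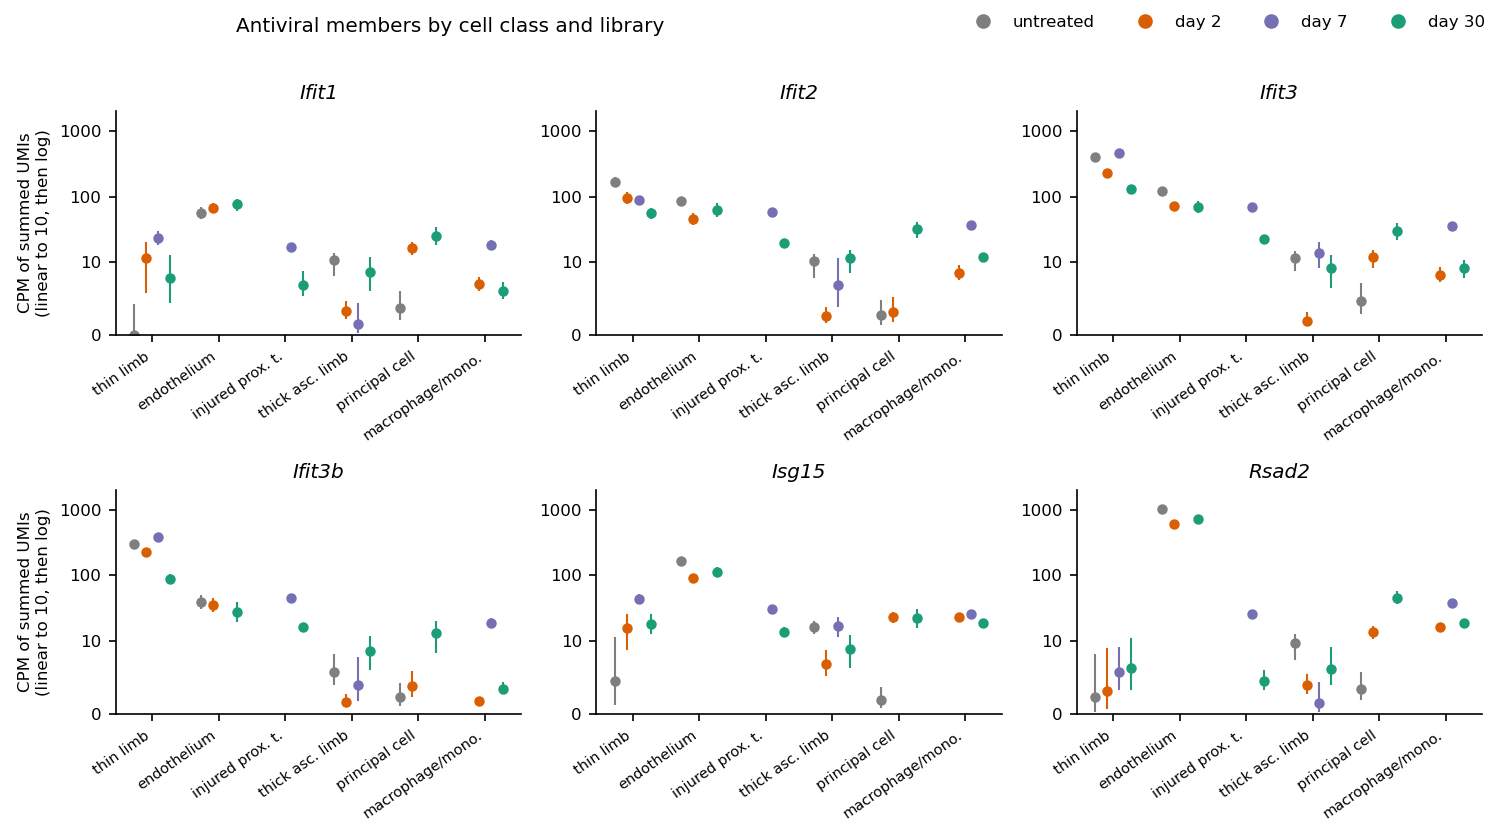
Levels in CPM of Ifit1, Ifit2, Ifit3, Ifit3b, Isg15 and Rsad2 in 6 cell classes and up to 4 libraries, with exact Poisson 95% intervals (axis linear to 10 CPM, then logarithmic). Ifit3 and Ifit3b are highest in thin limb in every library, and Rsad2 is highest in endothelium, at 616 to 1047 CPM.

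Relative to the untreated thin limb cells, most called members were higher after IRI, and Ifit2, Ifit3 and Ifit3b were not called higher at any time. Thin limb at day 30 had 12 of 17 measured members called higher and 4 lower, where 10.6% of measured genes were called higher and 10.1% lower. The 4 called lower were Ifit3b (ratio 0.293, interval 0.241 to 0.357), Ifit3 (0.329, 0.279 to 0.388), Ifit2 (0.333, 0.256 to 0.43) and Cmpk2 (0.302). At day 7, 11 of 20 were called higher and 1 lower, where 11% and 12.7% of measured genes were, and at day 2, 8 of 16 were called higher and 1 lower, where 9.33% and 15.1% were. Only 7 of the 34 reached 20 CPM in untreated thin limb, and these included the 4 called lower at day 30. Most members called higher were therefore measured through the IRI library alone, and much of these counts was fixed by the minimum level. Under the stricter margin the untreated class held 38 cells, too few to repeat the counts. The medians over all 34 members were 0.42, 0.69 and 0.71 at days 2, 7 and 30, beside -0.14, 0.01 and 0.03 over all measured genes.

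Among the members higher in thin limb after IRI, Irf1, a transcription factor, was at 20.4, 34.3, 40.6 and 131 CPM from untreated to day 30. Gbp2, a guanylate-binding GTPase, was at 6.81, 23.9, 22.5 and 55.6 CPM, and Ifitm3 at 10.2, 98.6, 107 and 107 CPM. Irf1 and Gbp2 were highest at day 30, where Ifit3 was lowest. Some thin limb values came from very few cells. Xaf1, which binds the apoptosis inhibitor XIAP, reached 104 CPM at day 2, and 76 of its 100 UMIs were in 1 cell. Isg15 reached 44.2 CPM at day 7 with 39.4% of its UMIs in 1 cell. Ifit3 at day 7 had 9.17% of its 1352 UMIs in the highest cell.

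Proximal tubule cells that kept their marker profile numbered 3051, 88, 80 and 271 in the untreated, day 2, day 7 and day 30 libraries. At day 2, 6 of 6 measured members were called higher than in untreated proximal tubule and 0 lower, where 14.1% of measured genes were called higher and 3.87% lower. At day 7, 10 of 11 were called higher and 0 lower, where 15% and 3.27% were. At day 30, 5 of 6 were called higher and 0 lower, where 14.1% and 2.75% were. Most members were too low to be measured, and since few members passed 20 CPM in the untreated cells, those that passed did so mainly through the IRI library. Over all 34 members the median log2 difference was 0.31, 0.57 and 0.26 at days 2, 7 and 30, beside 0.27, 0.34 and 0.31 over all measured genes.

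By role, the nucleic acid sensor Ddx58, which encodes RIG-I, was at 10.5, 26.8, 42.4 and 28.3 CPM in the untreated, day 2, day 7 and day 30 proximal tubule. Gbp7, a guanylate-binding GTPase, was at 7.04, 10.7, 33.4 and 31.3 CPM and Irf1 at 3.13, 13.4, 26.8 and 16.7 CPM. Each was lowest in the untreated cells. At day 7, Irf1 had a ratio of 8.57 (interval 5.97 to 12.2), Gbp2 of 8.44 (5.56 to 12.7, at 20.3 against 2.4 CPM), Gbp7 of 4.75 (3.55 to 6.3) and Ddx58 of 4.05 (3.15 to 5.17). Without the single cell of each library with the most antiviral UMIs, Gbp2 at day 7 was under the minimum level. Antiviral members stayed low: Isg15 was at 2.65, 0.895, 2.36 and 3.65 CPM, and Rsad2 at 9.6, 2.68, 0.942 and 3.65 CPM.

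The day 2 calls in epithelium stood beside neutrophil RNA. Ifitm1, which encodes a membrane protein that blocks virus entry, was at 0.326, 112, 0.942 and 0.913 CPM in the untreated, day 2, day 7 and day 30 proximal tubule, and at 0, 67.6, 1.48 and 0.495 CPM in thick ascending limb. In both classes it was high at day 2 and near 0 at the other times. In day 2 neutrophils it was at 3734 CPM. The 8 neutrophil markers summed to 1804 CPM in day 2 proximal tubule against 91 CPM in untreated proximal tubule, with 8 of 8 against 1 of 8 at or above 20 CPM. They summed to 1211 CPM in day 2 thick ascending limb (6 of 8 at or above 20 CPM) against 10.3 CPM in the untreated class (0 of 8, with 3 at 0 UMIs). The number of Ifitm1 UMIs per UMI of the neutrophil marker S100a8 was 0.168 in day 2 proximal tubule, 0.145 in thick ascending limb, 0.138 in principal cells and 0.143 in intercalated cells, against 0.101 in neutrophils and 0.684 in fibroblasts. When 10% of each class profile was subtracted as the mean profile of its library, 3 of the 6 proximal tubule calls at day 2 remained, and the log2 difference of Ifi27l2a became -0.32 and that of Ifitm3 -1.16. The mean day 2 profile held S100a8 at 7583 CPM and Ifi27l2a at 820 CPM. Of these, 10% is more than the 666 and 39.4 CPM in day 2 proximal tubule. The sign change of Ifi27l2a was therefore fixed by the setting.

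The macrophage markers moved too. Their sum over 11 genes was 190, 245 and 328 CPM in proximal tubule at days 2, 7 and 30, against 7.69 CPM in the untreated class, where 0 of 11 reached 20 CPM. Ifi27l2a, whose level was high in macrophages, was at 39.4, 31.6 and 20.1 CPM in proximal tubule at days 2, 7 and 30 against 3.78 CPM in the untreated class. Its UMIs per UMI of the macrophage marker C1qa were 0.205 to 0.44 across the epithelial classes at day 30, against 0.159 in macrophages of that library. At day 2 they were 0.735 (parietal epithelium) to 4.63 (urothelium), with 2.2 in proximal tubule, against 1.31 in macrophages. At day 7 they were 0.638 (proximal tubule) to 1.68 (thick ascending limb), against 0.32 in macrophages. The part of macrophage RNA in these values was not tested beyond the subtraction: with 30% removed, 1, 6 and 1 members remained called higher at days 2, 7 and 30.

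Injured proximal tubule cells, gated on injury markers, gave more calls. They numbered 711 at day 7 and 755 at day 30, and were set against the 3051 untreated proximal tubule cells, since the untreated library held only 8 injured cells. At day 7, 18 of 18 measured members were called higher in injured cells and 0 lower, where 39% of measured genes were called higher and 10.9% lower. At day 30, 14 of 14 were called higher and 0 lower, where 42.7% and 11.6% were. Of these members 16 at day 7 and 12 at day 30 were measured through the injured cells alone, since only Ifitm2 and Ifitm3 reached 20 CPM in untreated proximal tubule, so most of both counts was fixed by the minimum level. The median over all 34 members was 1.42 at day 7 and 1.09 at day 30, beside 0.59 and 0.63 over all measured genes, and it was 3.55 and 2.90 without the added 10 CPM. The classes also differed in depth and RNA quality, with median totals of 25027 and 10821 UMIs in injured cells at days 7 and 30 against 3886 in untreated proximal tubule, and median mitochondrial shares of 3.67% and 3.47% against 18.9%. Without mitochondrial genes in the scaling the counts were 19 and 14.

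Among the members called at day 7, the 5 largest ratios were of IFIT genes and guanylate-binding GTPases (Ifit3b, Ifit3, Gbp3, Ifit2 and Gbp2). Ifit3 was at 68.4 CPM in injured cells at day 7 and 22.6 CPM at day 30, against 2.28 CPM in untreated proximal tubule (day 7 ratio 30, interval 23 to 39.9). Gbp2 was at 54.3 and 41.7 CPM against 2.4 CPM (day 7 ratio 22.6, interval 17.4 to 29.9). Gbp3 was at 45.7 and 24 CPM, and its day 7 ratio was 29.6 (interval 21.4 to 42.1). All 3 were above the untreated level at both times, and at the later time the ratios were smaller. Bst2 was at 102 and 68 CPM at days 7 and 30 against 7.57 CPM (day 7 ratio 13.4, interval 11.6 to 15.7). Irf1 was at 47.7 and 74.5 CPM against 3.13 CPM, with ratios of 15.2 (12.1 to 19.5) and 23.8 (18.8 to 30.5), so its day 30 level was the higher one.

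**Figure D3:**
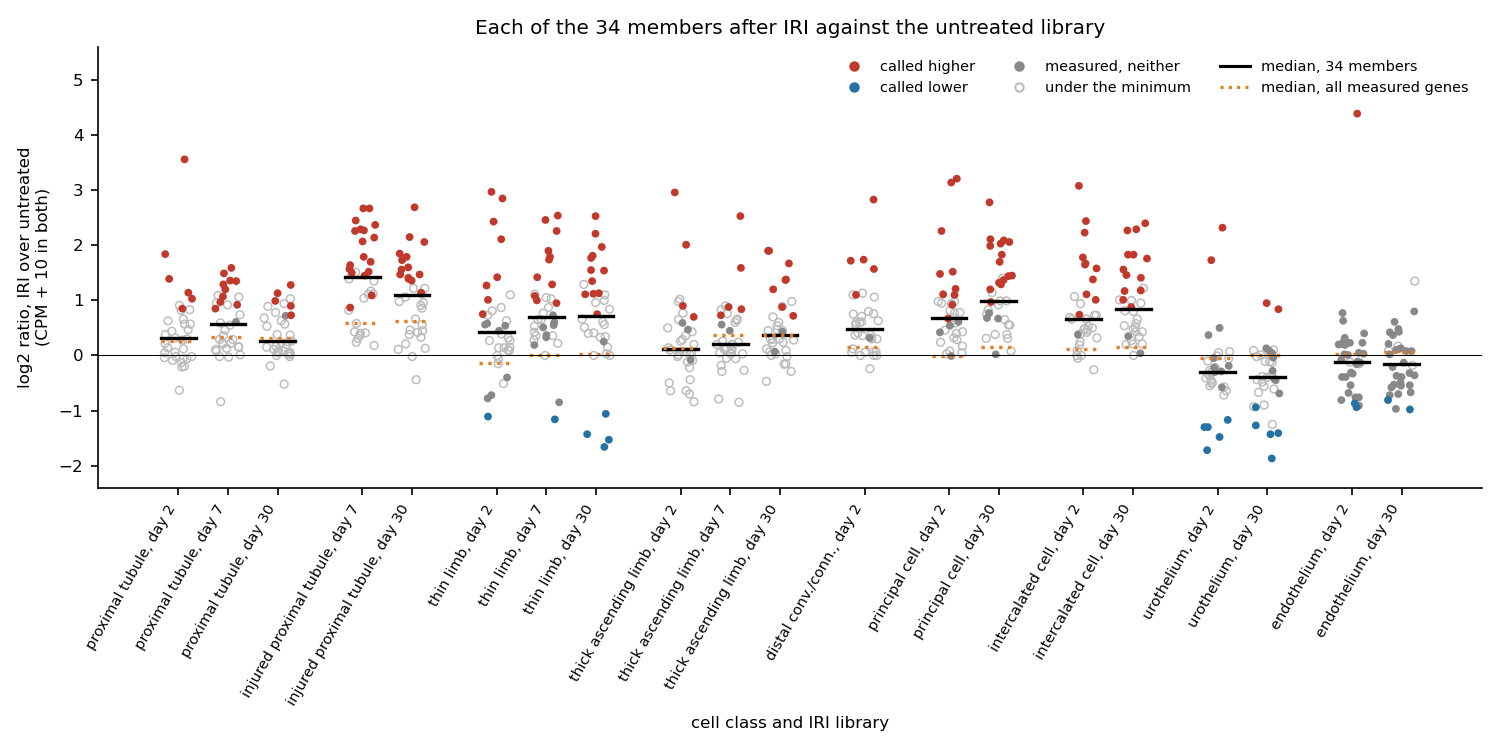
Log2 difference, as log2 of the ratio of (CPM + 10), of each of the 34 members in each cell class of an IRI library against the untreated class (injured proximal tubule against untreated proximal tubule). Red points were called higher, blue lower, grey neither and open points were under the minimum level; the black line is the median of the 34 and the dotted line the median of all measured genes. Injured proximal tubule at day 7 has 18 red points and a median of 1.42, and endothelium at day 30 has no red point.

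Within a library, injured proximal tubule cells were also set against proximal tubule cells that kept their profile. At day 7, 10 of 19 measured members were called higher in injured cells and 0 lower, where 12.5% of measured genes were called higher and 8.43% lower. At day 30, 7 of 14 were called higher and 0 lower, where 17.6% and 9.54% were. Bst2 was at 102 CPM in injured cells against 24.5 CPM in proximal tubule at day 7 (ratio 4.15), and at 68 against 16.1 CPM at day 30 (ratio 4.22). Ifit3 was at 68.4 against 15.5 CPM at day 7 (ratio 4.4, interval 3.12 to 6.42). These comparisons are within 1 library, so both classes share its handling.

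Injured cells of day 30 had lower levels of several antiviral members than those of day 7, and no transcription factor was called lower. Of 19 measured members, 0 were called higher at day 30 and 6 lower, where 2.34% of measured genes were called higher and 0.94% lower. Rsad2 was at 4.48 CPM at day 30 against 25.9 CPM at day 7 (ratio 0.173, interval 0.123 to 0.236). Ifit3 was at 22.6 against 68.4 CPM (ratio 0.33, interval 0.285 to 0.382), and Ifit2 at 19.2 against 58.3 CPM (ratio 0.329). Ifit3b (ratio 0.359), Ifi27l2a (0.424) and Isg15 (0.442) were the other three. The sensors Ddx58 and Ifih1, which encodes MDA5, were level: Ddx58 was at 60.9 CPM at day 30 against 61 CPM at day 7, and Ifih1 at 29.4 against 28.9 CPM.

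The day 7 antiviral values came from a minority of injured cells. The 36 highest of 711 cells held 93.6% of Rsad2 UMIs, 89.1% of Ifit1 UMIs and 66.5% of Ifit3 UMIs, and 1 cell held 33.7% of Rsad2 UMIs. The corresponding 36 cells held 45.4% of Gbp2 UMIs. At day 30 the highest cell held 9.3% of the 43 Rsad2 UMIs. Without the cell with most antiviral UMIs in each class and library, 18 members at day 7 and 14 at day 30 were still called higher than in untreated proximal tubule. Those counts do not bear on the difference between day 30 and day 7.

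Thick ascending limb cells numbered 641, 613, 84 and 370 in the untreated, day 2, day 7 and day 30 libraries. Against the untreated class, 4 of 7 measured members were called higher at day 2, 5 of 7 at day 7 and 8 of 10 at day 30, with 0 lower at each time. The background of measured genes called higher was 11.9%, 20.2% and 22.8% at these times, and 10.1%, 7.67% and 7.98% were called lower. Only 3 of the 34 reached 20 CPM in the untreated class. Most measured members therefore passed through the IRI library alone, and much of these counts was fixed by the minimum level. The medians over all 34 members were 0.12, 0.20 and 0.37, beside 0.13, 0.38 and 0.38 over all measured genes. Most of the 34 were under the minimum level, where the added 10 CPM draws differences toward 0. The 2 medians therefore cover unlike sets of genes. The median mitochondrial share was 19.5%, 8.1%, 4.52% and 6.31% from untreated to day 30. Without mitochondrial genes in the scaling, or without the cell with most antiviral UMIs, 3 in place of 5 were called higher at day 7.

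Ddx58 was called higher in thick ascending limb at all 3 times, at 10.9, 28.9, 52.9 and 67.8 CPM from untreated to day 30 (day 30 ratio 6.23, interval 4.7 to 8.38). Irf9, the DNA-binding part of the complex that reads the ISRE, was at 10.7, 23.6, 28.2 and 28.2 CPM. Irf1 was at 4.9, 19.3, 15.3 and 45.8 CPM, with a day 30 ratio of 9.35 (interval 6.22 to 14.6). All 3 were lowest in the untreated class. Gbp2 was at 0.907, 12.1, 9.39 and 24.7 CPM (day 30 ratio 27.3, interval 11.3 to 85.8), and Gbp7 at 5.44, 16.4, 18.8 and 25.5 CPM (day 30 ratio 4.68). Ifitm3 was at 31.4, 52.3, 64.2 and 98 CPM (day 30 ratio 3.12, interval 2.6 to 3.75). Ifih1 was called higher at day 7 and day 30, at 8.52, 9.01, 20.7 and 20.5 CPM. The sum of the macrophage markers was 114, 213 and 332 CPM at days 2, 7 and 30 against 3.81 CPM in the untreated class.

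Among the antiviral members of thick ascending limb, Isg15 was at 16.1, 6.81, 16.8 and 8.91 CPM, Ifit1 at 10.7, 3.3, 1.48 and 8.66 CPM and Rsad2 at 9.79, 3.95, 1.48 and 6.18 CPM from untreated to day 30. None reached the minimum level, and the untreated class was not the lowest for any of the 3. Ifi27l2a was at 2.36, 39.8, 61.3 and 22 CPM, and it was called higher at all 3 times after IRI. At day 2 the macrophage markers summed to 114 CPM. Its UMIs per C1qa UMI were 2.94, 1.68 and 0.284 at days 2, 7 and 30, against 1.31, 0.32 and 0.159 in macrophages. After subtraction of 10% of the library profile the day 2 log2 difference of Ifi27l2a was -0.12. The mean day 2 profile held it at 820 CPM, and 10% of this is more than the class held.

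Principal cells of the collecting duct, which reabsorb water, numbered 460, 374 and 155 in the untreated, day 2 and day 30 libraries. At day 2, 10 of 14 measured members were called higher than in the untreated class and 0 lower, where 8.06% of measured genes were called higher and 7.67% lower. At day 30, 15 of 19 were called higher and 0 lower, where 11.1% and 5.88% were. Only Irf1, Irf9, Ifitm2 and Ddx58 reached 20 CPM in the untreated class, so 10 of the 14 and 15 of the 19 were measured through the IRI library alone. The median over all 34 members was 0.68 at day 2 and 0.99 at day 30, beside -0.01 and 0.15 over all measured genes. Without the cell with the most antiviral UMIs, 7 and 12 were called higher.

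Ifitm3 was at 14.1, 203 and 156 CPM in untreated, day 2 and day 30 principal cells (day 30 ratio 11.1, interval 8.34 to 14.9). Oasl2, a relative of the 2′-5′-oligoadenylate synthetases, was at 2.31, 25.4 and 42.4 CPM (day 30 ratio 18.4, interval 9.43 to 40). Gbp2 was at 1.15, 12 and 38.1 CPM (day 30 ratio 33.1, interval 13.5 to 105). All 3 were lowest in the untreated cells, and Oasl2 and Gbp2 were highest at day 30. Ifi47, an immunity-related GTPase, was at 0.922, 11.6 and 33.3 CPM (day 30 ratio 36.1, interval 13.3 to 137), and Gbp7 at 7.61, 23.4 and 52.7 CPM (ratio 6.92, interval 4.59 to 10.7). Rsad2 was at 3.46, 13.6 and 46 CPM and Ifit2 at 2.77, 3.2 and 31.5 CPM, but at day 30 a single cell held 55.3% of Rsad2 UMIs and 69.2% of Ifit2 UMIs, and without the highest antiviral cell Ifit2 was under the minimum level. Isg15 was at 1.84, 23 and 22.4 CPM, and at day 2 a single cell held 37.4% of its UMIs. Trim30a, a negative regulator of innate immune signalling, was at 4.61, 21.4 and 14.5 CPM. With 30% of the library profile subtracted, 2 members at day 2 and 15 at day 30 were called higher, and Trim30a at day 2 had a log2 difference of -0.43. The macrophage markers summed to 145 CPM at day 2 and 463 CPM at day 30, against 10.4 CPM in untreated principal cells.

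Intercalated cells, the acid-base cells of the collecting duct, numbered 808, 113 and 109 in the untreated, day 2 and day 30 libraries. At day 2, 11 of 12 measured members were called higher and 0 lower, where 10.3% of measured genes were called higher and 7.5% lower, and at day 30, 13 of 15 were called higher and 0 lower, where 10.6% and 4.93% were. Only Ifitm2 and Rsad2 reached 20 CPM in the untreated class. The medians over all 34 members were 0.66 and 0.85, beside 0.11 and 0.15 over all measured genes. Oasl2 was at 0.599, 23.2 and 41.2 CPM (day 30 ratio 68.7, interval 27.6 to 220) and Irf1 at 4.07, 34.8 and 64.1 CPM (day 30 ratio 15.7, interval 10.4 to 24.2). Rsad2 was at 33.2, 83.5 and 45.1 CPM, called higher at day 2 (ratio 2.52, interval 1.99 to 3.15) and not at day 30. With 30% of the library profile subtracted, 3 members were called higher at day 2. In distal convoluted or connecting tubule cells at day 2 (150 cells, against 259 untreated), 5 of 6 measured members were called higher and 0 lower, where 13.8% of measured genes were called higher and 10.1% lower. These were Ifitm1, Ifi27l2a, Ifitm3, Irf9 and Ddx58, the last at 75 CPM against 15.8 CPM (ratio 4.74, interval 3.22 to 7.17). Only 1 of the 34 reached 20 CPM in the untreated class, so most of this count was fixed by the minimum level.

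Urothelium, the lining of the renal pelvis, went the other way. It held 210, 160 and 131 cells in the untreated, day 2 and day 30 libraries. At day 2, 2 of 15 measured members were called higher and 5 lower, where 3.6% of measured genes were called higher and 5.21% lower, and at day 30, 2 of 15 were called higher and 5 lower, where 5.04% and 5% were. The medians over all 34 members were -0.30 and -0.39, beside -0.05 and -0.00 over all measured genes. Gbp2 was at 45.7, 6.93 and 11 CPM in the untreated, day 2 and day 30 urothelium (ratios 0.152 and 0.24). Ifit1 was at 31.8, 6.93 and 5.5 CPM, and Igtp, an immunity-related GTPase, at 28.8, 5.78 and 0.611 CPM. The untreated class was the highest of the 3 for each. In untreated urothelium the 10 highest of 210 cells held 89.5% of Gbp2 UMIs and 80.8% of Ifit1 UMIs.

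Over all cells together, 18 of 20 measured members were called higher at day 2 and 0 lower, where 22.9% of measured genes were called higher and 18% lower. At day 7, 16 of 19 were called higher and 1 lower, where 19.2% and 11.2% were, and at day 30, 14 of 16 were called higher and 1 lower, where 22.1% and 12.8% were. The member called lower was Rsad2, at 51.9, 23.1 and 25.5 CPM in the untreated, day 7 and day 30 libraries. Only Bst2, Ifitm2, Ifitm3 and Rsad2 reached 20 CPM over all untreated cells. The other measured members, 16 at day 2, 15 at day 7 and 12 at day 30, were measured through the IRI library alone. Most of each count called higher was therefore fixed by the minimum level. The libraries also differed in the cells they held: neutrophils and macrophages or monocytes made up 2617 and 2557 of 8310 cells at day 2 and 9 and 39 of 6545 untreated cells, and endothelium, where Rsad2 was highest, made up 390 untreated cells and 2 cells at day 7. More cells of a class and more RNA per cell cannot be told apart in such totals.

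Macrophages and monocytes were compared between IRI times, since the untreated library held too few. They numbered 2557, 365 and 1775 at days 2, 7 and 30. At day 30 against day 2, 2 of 23 measured members were called higher and 5 lower, where 7.83% of measured genes were called higher and 6.54% lower. The median over all 34 members was -0.15, beside -0.03 over all measured genes. At day 7 against day 2, 5 of 26 were called higher and 2 lower, where 6.05% and 3.48% were.

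The members called higher at day 30 were both guanylate-binding proteins. Gbp2 was at 21.4, 53.2 and 105 CPM at days 2, 7 and 30 (ratio of day 30 to day 2 4.92, interval 4.51 to 5.37), and Gbp3 at 21.2, 49.1 and 84.8 CPM (ratio 4.01, interval 3.66 to 4.38). Both were lowest at day 2 and highest at day 30. After thinning, 3.13%, 6.3% and 18% of macrophages held a Gbp2 UMI at days 2, 7 and 30. Unthinned, the shares were 13.3%, 44.1% and 43.4%, at median totals of 11718, 22465 and 8991 UMIs per cell, and the thinned share in proximal tubule cells of the untreated library was 0.623%.

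The 5 called lower at day 30 were led by Ifitm1 and Ifi27l2a. Ifitm1 was at 98.2, 3.39 and 2.92 CPM at days 2, 7 and 30, and its log2 difference of -3.07 became 0.29 when 30% of the library profile was subtracted, beside the neutrophil level of 3734 CPM at day 2. The mean day 2 profile held Ifitm1 at 803 CPM, and 30% of this is more than the macrophage level. The loss of the difference was therefore fixed by the setting. Ifi27l2a, which encodes a small membrane protein, was at 1539, 726 and 369 CPM (ratio of day 30 to day 2 0.24, interval 0.234 to 0.246). Its thinned share was 81.5%, 60.8% and 42.8% of macrophages. The other three were Rtp4, a chaperone-like protein, at 41.1, 27.3 and 15.5 CPM, Irf7, a transcription factor that amplifies type I interferon, at 26.6, 24.4 and 11.6 CPM, and Oasl2 at 43.3, 32.6 and 20.7 CPM. Each was lowest at day 30. Ifit2 and Ifit3 peaked at day 7, at 8.55, 37.3 and 11.9 CPM and at 8.27, 36.1 and 9.12 CPM. After thinning, 4.38% of day 7 macrophages held an Ifit2 UMI and 4.38% an Ifit3 UMI. The 18 highest of the 365 cells held 55.5% of the UMIs of the 12 antiviral members listed below.

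**Figure D4:**
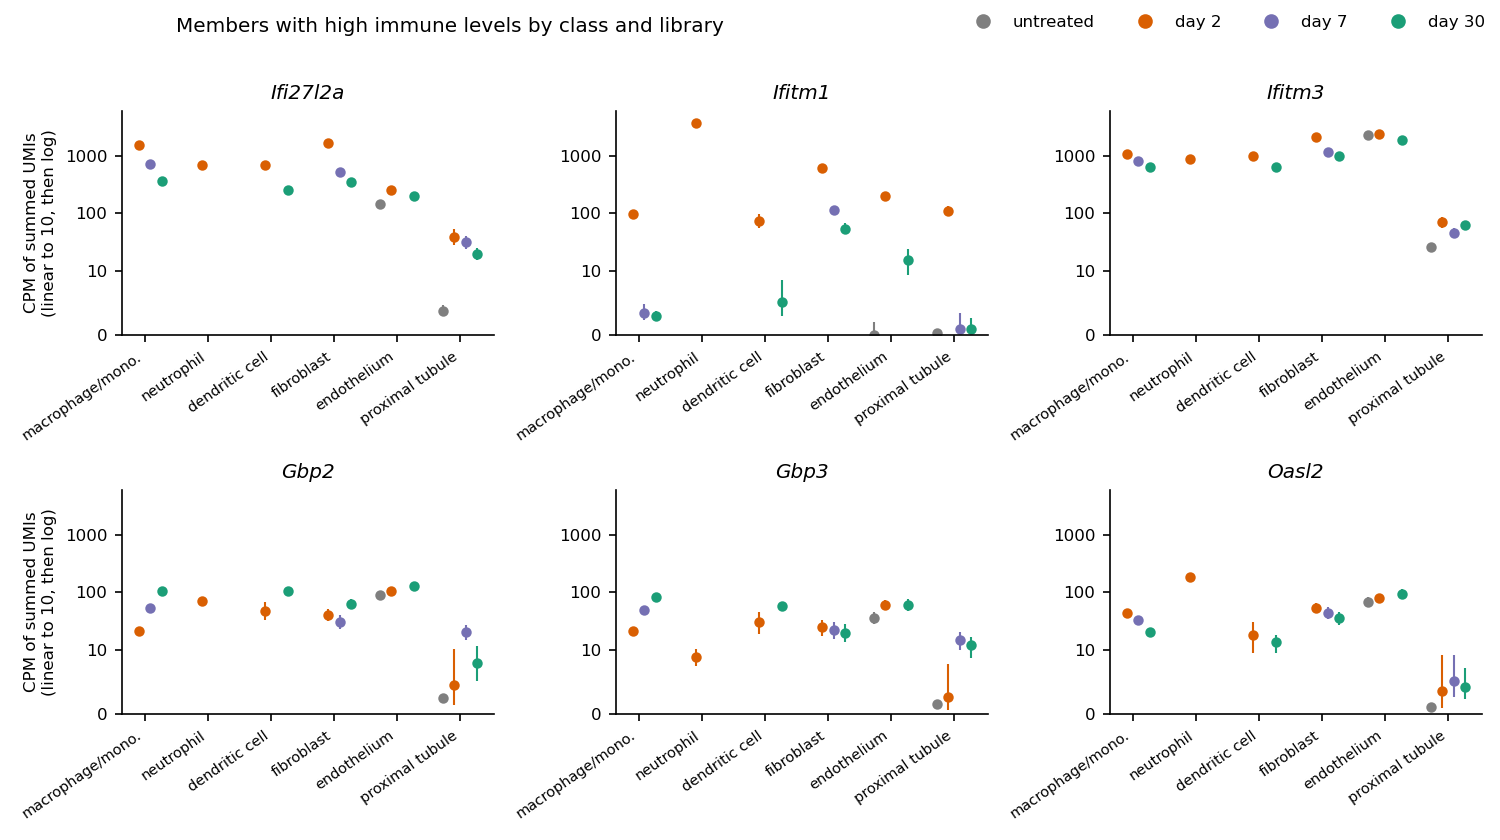
Levels in CPM of Ifi27l2a, Ifitm1, Ifitm3, Gbp2, Gbp3 and Oasl2 in macrophages or monocytes, neutrophils, dendritic cells, fibroblasts, endothelium and proximal tubule by library, with exact Poisson 95% intervals. Macrophage Gbp2 goes up through 21.4, 53.2 and 105 CPM at days 2, 7 and 30 while Ifi27l2a goes through 1539, 726 and 369 CPM.

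Neutrophils reached 50 cells only at day 2, with 2617 cells and a summed member level of 8972 CPM, the highest of any class and library. Against day 2 macrophages or monocytes, 11 of 27 measured members were called higher in neutrophils and 5 lower, where 20.9% of measured genes were called higher and 31.1% lower. The median over all 34 members was 0.35, beside -0.23 over all measured genes. Ifitm1 was at 3734 CPM in neutrophils against 98.2 CPM in macrophages (ratio 38, interval 36.7 to 39.4), and Ifitm2, of the same family, at 2194 against 473 CPM (ratio 4.64). Isg15 was at 112 against 23.3 CPM (ratio 4.81), Oasl2 at 182 against 43.3 CPM (ratio 4.21) and Irf1 at 220 against 51.2 CPM (ratio 4.29). The pattern was mixed, since Bst2 was at 25.3 CPM in neutrophils against 127 CPM in macrophages (ratio 0.199), and Ifi27l2a at 699 against 1539 CPM. The median depth was 5207 UMIs per neutrophil and 11718 per macrophage.

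Cells carrying several antiviral transcripts at once were counted after thinning to 2000 UMIs. The set was the 12 members that encode the Isg15 modifier and its protease Usp18, the IFIT and OAS proteins, and the enzymes or GTPase Rsad2, Cmpk2 and Mx1. In endothelium, 44.6%, 38.3% and 42.3% of cells held at least 2 of the 12 in the untreated, day 2 and day 30 libraries (lowest bound 32.9%, highest 51.3%). Thin limb held 32.7%, 19.5%, 35.1% and 10.9% from untreated to day 30. Proximal tubule held 0.852%, 0%, 0% and 0.369%, where 0 of 88 and 0 of 80 cells had a limit of 3.41% and 3.75% at 3 cells, and exact upper limits of 4.11% and 4.51%. These limits are on cells with such UMIs, not on cells that express the genes.

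Injured proximal tubule held 6.89% at day 7 (49 of 711 cells, interval 5.14% to 9.01%) and 2.78% at day 30 (21 of 755, interval 1.73% to 4.22%). Unthinned, the shares were 64.4% and 25.8%, at median depths of 25027 and 10821 UMIs. Principal cells held 0.435%, 1.87% and 4.52% in the untreated, day 2 and day 30 libraries (intervals 0.0527% to 1.56% untreated and 1.83% to 9.08% at day 30). These intervals run over cells of 1 library each and do not compare the conditions. Neutrophils at day 2 held 12.5% (interval 11.3% to 13.8%), and macrophages or monocytes held 4.93%, 6.3% and 3.15% at days 2, 7 and 30. The shares of the antiviral UMIs held by the top 5% of cells were 53.9% and 31.8% in injured proximal tubule at days 7 and 30, and 24.8%, 24.6% and 15.5% in untreated, day 2 and day 30 endothelium.

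**Figure D5:**
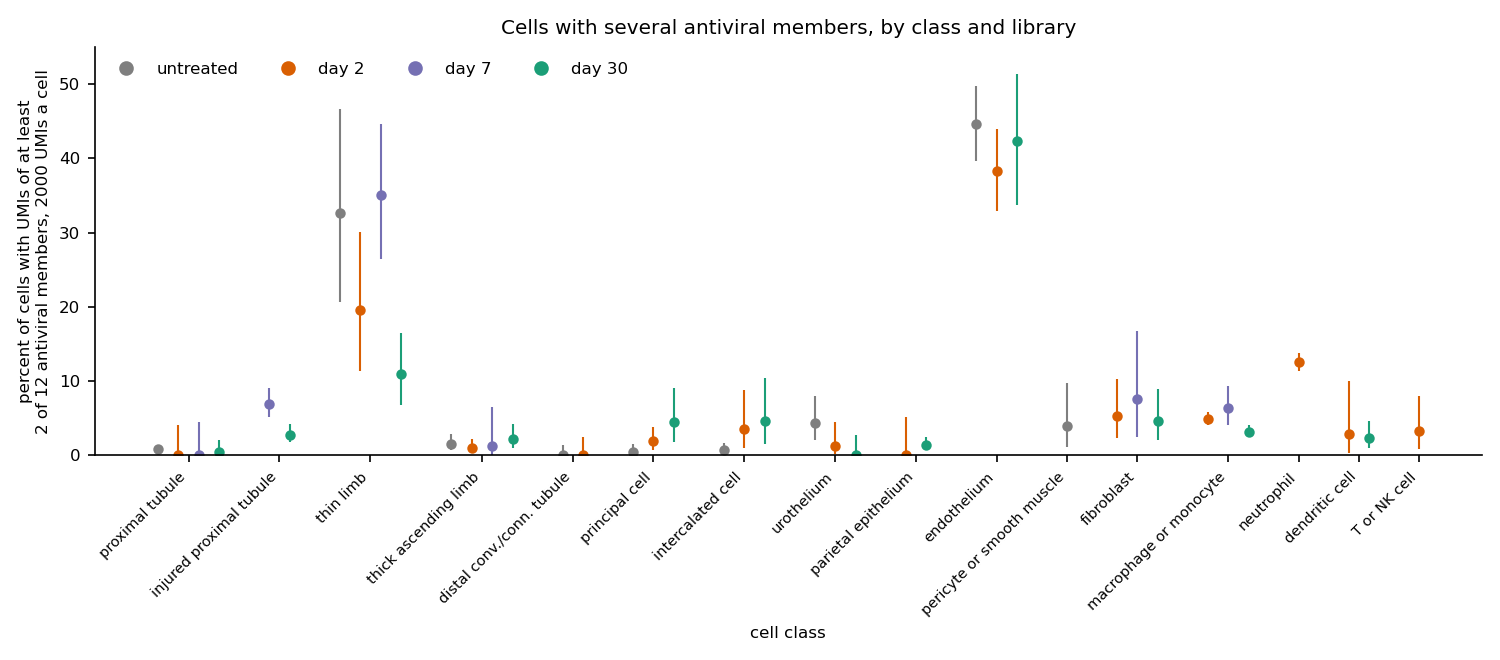
Percent of cells of each class and library that held UMIs of at least 2 of the 12 antiviral members after thinning to 2000 UMIs per cell, with exact Clopper-Pearson 95% intervals. Endothelium lies between 38.3% and 44.6% in the untreated, day 2 and day 30 libraries, thin limb between 10.9% and 35.1%, and proximal tubule below 1%.

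Few UMIs of the interferons themselves were counted. None of 11 interferon genes reached the minimum level in any comparison named above. All 19 UMIs of Ifnb1, which encodes interferon beta, were in macrophages or monocytes of the day 2 library, and 0 UMIs were counted in the other 3 libraries. Ifng, which encodes interferon gamma, had 2, 155, 0 and 28 UMIs in the untreated, day 2, day 7 and day 30 libraries, and 118 of the 155 at day 2 were in the 125 T or NK cells. Some low transcripts are missed at this depth, so these counts do not show that a gene is off.

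Most measured receptor genes were called higher in the tubule comparisons given here. In injured proximal tubule at day 7, 5 of 6 receptor genes were measured and 5 were called higher, where 39% of all measured genes were. All 5 were under 20 CPM in untreated proximal tubule and were measured through the injured cells alone. Most of this count was therefore fixed by the minimum level, and the same limit holds below for receptor genes under 20 CPM in the untreated class. Ifngr1 was at 191 CPM in injured cells at day 7 against 15.8 CPM in untreated proximal tubule (ratio 12.1, interval 10.9 to 13.4), and Ifngr2 at 133 against 10 CPM (ratio 13.3, interval 11.7 to 15.2). The type I chains Ifnar1 (56.9 against 13.2 CPM) and Ifnar2 (50.8 against 13.7 CPM) and the shared chain Il10rb (46.1 against 11.7 CPM) had ratios of 4.32, 3.7 and 3.93. In principal cells at day 30, 4 of 5 measured were called higher (11.1% of all measured genes), led by Ifngr2 at 87.2 against 20.3 CPM (ratio 4.3, interval 3.27 to 5.67), and in thick ascending limb at day 30, 4 of 5 (22.8% of all), led by Ifngr1 at 82.6 against 17.2 CPM (ratio 4.8, interval 3.81 to 6.09). Ifnlr1, the chain specific to type III interferon, was at 1.41 to 2.73 CPM over all cells of each library. In endothelium 0 receptor genes at day 2 and 1 at day 30 were called higher, and in macrophages 0 at day 30 against day 2.

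Among the kinases and signal transducers, Stat3, Jak2 and Jak1 were called higher in injured proximal tubule at day 7 than in untreated proximal tubule. Stat3 was at 96.1 against 14.3 CPM, Jak2 at 35.3 against 10.5 CPM and Jak1 at 206 against 88.7 CPM. Tyk2 was at 4.59 to 15.4 CPM over all cells of each library. In thick ascending limb at day 30, Stat3 and Jak1 were called higher. Among the sensors and adaptors upstream, 14 of 16 listed symbols were in the files, and Tmem173, which encodes STING, was the 1 called higher at day 30 in thick ascending limb (31.9 against 1.27 CPM, ratio 25.1) and in principal cells (32.7 against 3.23 CPM, ratio 10.1). Of 6 inhibitors, Socs3, which blocks cytokine receptor signalling, was at 52 CPM in injured proximal tubule at day 7 against 1.95 CPM (ratio 26.6, interval 19.9 to 36.4), and at 235 CPM in day 30 thick ascending limb against 5.08 CPM (ratio 46.3, interval 31.8 to 70).

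A longer list of other interferon-stimulated genes, 61 of 64 found in the files, was read in the same way. In injured proximal tubule, 21 of 25 measured were called higher at day 7 and 21 of 23 at day 30, with 0 lower, where 39% and 42.7% of all measured genes were called higher. The largest at day 7 were Psmb8, an immunoproteasome subunit, at 145 against 5.66 CPM (ratio 25.6), Ly6e, a membrane protein, at 846 against 78.7 CPM (ratio 10.7), Cxcl10, a T cell chemokine, at 107 against 2.36 CPM (ratio 45.3) and Parp14, an ADP-ribosyltransferase, at 72.2 against 3.13 CPM (ratio 23). Psmb8, Cxcl10 and Parp14 were measured through the injured cells alone, so part of the day 7 count was fixed by the minimum level. In principal cells 15 of 23 and 25 of 31 were called higher at days 2 and 30, where 8.06% and 11.1% of all measured genes were. In thick ascending limb the counts were 3 of 14, 9 of 16 and 12 of 20 at days 2, 7 and 30, where 11.9%, 20.2% and 22.8% were. In endothelium 0 of 49 at day 2 and 0 of 47 at day 30 were called higher, where 8.24% and 9.75% were, and 2 and 3 were called lower, where 8.92% and 8.87% were. In macrophages at day 30 against day 2, Cxcl9 (59.9 against 18.5 CPM) and Ly6a (152 against 59.3 CPM) were called higher, and Cxcl10 (32.1 against 71 CPM) and Ifi44 (14.1 against 30.6 CPM) lower, of 38 measured, where 7.83% of all measured genes were called higher and 6.54% lower.

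Several members were low nearly everywhere. Mx1, a dynamin-like antiviral GTPase, was at 0.278, 6.22, 4.3 and 4.55 CPM over all cells from untreated to day 30 and was highest in dendritic cells at day 2 and day 30, at 27.5 and 33.9 CPM. Usp18, the protease that removes Isg15 from proteins, was at 3.83, 10.1, 6.26 and 7.45 CPM, and Zbp1, a sensor of Z-form nucleic acid, at 1.15, 18.2, 7.48 and 9.07 CPM. Gbp5 was at 1.85, 5.67, 11.6 and 7.73 CPM, and Oas1a at 2.15, 12.1, 11.5 and 7.57 CPM over all cells. Stat2, which joins Irf9 in the ISRE-binding complex, was at 7.74, 16.7, 14.5 and 19.8 CPM. Each was lowest in the untreated library.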

How the data were processed

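Single-cell RNA of GFP+ kidney cells was read with a 10x Genomics 3′ v3.1 kit, per the labels. The deposited values are whole-number UMI counts per gene and cell; Cell Ranger 7.0.1 and build mm10 are named in the submitters' processing notes, and the matrix headers give software version 3.0.1, per the file headers. No normalization was found in the deposited counts. The members and all gene lists were chosen with earlier results of these data known.

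Barcodes with at least 500 UMIs, 300 genes and at most 50% mitochondrial UMIs were kept, and doublets called by Scrublet were removed (1, 678, 10 and 581 in the untreated, day 2, day 7 and day 30 libraries; the call did not work in the untreated library). The mitochondrial limit removed 2739 of 9286 barcodes in the untreated library, and 34, 0 and 45 in the day 2, day 7 and day 30 libraries. Of 27230 barcodes, 23140 remained. Total UMIs per library were 68193456, 98818914, 49397016 and 76638427, and the lowest barcode totals were 2335, 3881, 18362 and 5976, so the smallest counted difference depends on the library and on the number of cells of a class. Each cell was scored on 19 marker lists, each marker scaled to its 99.5th percentile, and took the class of the highest score if this was at least 0.15 and led the next by 0.05; 2205 gated cells lay within 0.05 of losing their class. Leiden clusters (2000 variable genes, 30 components, 15 neighbours, resolution 1, members left out) gave the same name to 92.2% of gated cells in named clusters.

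UMIs were summed per class and library and scaled to 1000000 (CPM). Ratios have exact conditional binomial intervals, levels exact Poisson intervals and shares of cells exact Clopper-Pearson intervals, all at 95%. A zero in 1 group was set to a floor of 3 counts per library for a ratio. Cells were thinned to 2000 UMIs with a fixed seed. The calling step was tested on simulated data. Members are accounted for by role; values are given for those with the highest CPM of their role and for the 8 with the largest log2 difference among those called in the proximal tubule, thick ascending limb, principal cell and macrophage comparisons, and members named outside this rule were chosen after their values were seen. Alternatives were other classes, scalings, depth floors, free RNA subtractions, doublet and mitochondrial limits, level minimums, fold limits and gate margins. Python 3.11.15, numpy 2.4.6, scipy 1.17.1, pandas 2.3.3, scanpy 1.11.5, leidenalg 0.10.2 and matplotlib 3.10.9 were used. Protein sequences were not used here.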

Additional observations from a re-analysis of the deposited data

Results flagged for a closer look

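A few members were called in opposite directions in different cell classes under the same contrast against the untreated library; the difference between the classes was not tested. In urothelium at day 30, Gbp2 was called lower with a log2 difference of -1.41, while it was called higher in thick ascending limb, thin limb, principal cells, intercalated cells and injured proximal tubule. In urothelium at day 30, Ifit1 (-1.43) and Oasl2 (-0.94) were also called lower, and both were called higher in principal and intercalated cells. In urothelium at day 2, Gbp2 (-1.72) and Bst2 (-1.17) were called lower, and both were called higher in thin limb.

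In thin limb at day 30, Ifit3 (-1.53) and Ifit2 (-1.43) were called lower. Ifit3 was called higher in principal cells and injured proximal tubule, and Ifit2 in principal cells. The principal cell value of Ifit2 had 69.2% of its UMIs in 1 cell, and the untreated urothelium values of Gbp2 and Ifit1 had 89.5% and 80.8% of their UMIs in the 10 highest of 210 cells; the part of these few cells in the opposite directions was not tested.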

How the results depend on the processing

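No paired analysis was possible because each group held 1 library. Of 274 alternative counts of called members in the main comparisons (proximal tubule, injured proximal tubule, thick ascending limb and principal cell against untreated, and macrophages at day 30 against day 2), 220 stayed within 1.5 times of the reported count, 54 moved and in 0 a call turned round. In all other comparisons run, 196 of 790 counts moved and 1 call turned round (urothelium at day 30 against day 2, with 30% free RNA subtracted). Of 932 alternative log2 differences of single members, 127 were no longer called, and 72 of 135 shares of cells moved under another seed, 4000 UMIs or no thinning. With 30% subtracted, 2 members were called higher in day 2 thin limb, and 11 and 8 lower in urothelium at days 2 and 30. Counts of members called higher moved as follows, with times in rising order. With 10% free RNA subtracted they were 3 in proximal tubule, 1 in thick ascending limb and 5 in principal cells at day 2. With 30% subtracted they were 1, 6 and 1 in proximal tubule at days 2, 7 and 30, 1, 2 and 3 in thick ascending limb, and 2 in principal cells at day 2. With no filter on low values they were 15, 21 and 18 in proximal tubule, 11, 13 and 19 in thick ascending limb, 24 and 29 in principal cells and 31 and 30 in injured proximal tubule, more members being measured. With a minimum of 50 CPM, under which fewer are measured, they were 3, 1 and 1 in proximal tubule, 1, 3 and 2 in thick ascending limb, 3 and 3 in principal cells and 8 and 6 in injured proximal tubule. With Leiden classes they were 3 in proximal tubule at day 30 and 12 in thick ascending limb at day 7, with median-ratio scaling 3 and 2 in the same classes and times, and 3 in thick ascending limb at day 7 without mitochondrial genes. An alternative chosen after seeing the data, without the 1 cell of each class and library with most antiviral UMIs, gave 3 in thick ascending limb at day 7. Counts called lower moved from 0: with no filter to 1, 1 and 1 in proximal tubule, 6 and 2 in thick ascending limb at days 2 and 7 and 1 in injured proximal tubule at day 30; without mitochondrial genes to 1 and 1 in thick ascending limb at days 2 and 30; with median-ratio scaling to 1 there at day 30; with a 20% mitochondrial limit to 2, 1 and 2 there; and with 30% free RNA subtracted to 1 there and 1 in principal cells at day 2. In macrophages the 5 called lower became 3 and 3 with 10% and 30% subtracted, 2 at 50 CPM and 9 at 1.5-fold. For the single members, 5 log2 differences changed sign: Ifi27l2a (-0.32) and Ifitm3 (-1.16) in proximal tubule and Ifi27l2a (-0.12) in thick ascending limb at day 2 with 10% subtracted, and Trim30a (-0.43) in day 2 principal cells and Ifitm1 (0.29) in macrophages with 30%. The cause was not tested beyond each setting's own construction. In day 2 proximal tubule, thick ascending limb, principal cells and macrophages S100a8 was at 666, 466, 599 and 617 CPM. In the mean day 2 profile it was at 7583 CPM, and 10% of this is more than each class held. Day 2 counts and sign changes under both subtractions therefore come from settings above what this marker allows. Median-ratio scaling moved the median of all measured genes by -0.48 to 0.19 in the comparisons above, and by -0.76 and -0.82 in injured proximal tubule, where it left 16 and 13 members called higher. A common floor of 18362 UMIs per cell left too few cells for 64 counts. Depth limits members under 20 CPM in every class.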

Other observations

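Fibroblasts reached 50 cells only in the IRI libraries, with 151, 66 and 172 cells at days 2, 7 and 30. Their Ifi27l2a was at 1675, 519 and 357 CPM, Ifitm1 at 606, 117 and 54.6 CPM, and Ifitm3 at 2144, 1184 and 1010 CPM, each highest at day 2. Ifit3 was at 34, 77.3 and 15.4 CPM in the same order, highest at day 7. The Ifitm1 of day 2 fibroblasts came with 0.684 UMIs per UMI of S100a8, against 0.101 in neutrophils.

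Dendritic cells numbered 70 at day 2 and 337 at day 30. At day 30, Ifi27l2a was at 252 CPM against 706 CPM at day 2, Gbp2 at 106 against 48.1 CPM and Irf7 at 28 against 8.24 CPM, with 32.1% of the 81 Irf7 UMIs of day 30 in 1 cell. The 125 T or NK cells of day 2 had Ifi27l2a at 554 CPM, Ifitm1 at 189 CPM and Gbp7 at 106 CPM. Their S100a8 was at 1953 CPM, with 0.0968 Ifitm1 UMIs per S100a8 UMI, against 0.101 in neutrophils.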
